A study of Mus with 7 samples.

Results

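The histone genes here are those named Hist1h, Hist2h, Hist3h and Hist4h in the mouse annotation of the files, most but not all of them replication-dependent. They were taken by symbol from the single-cell RNA-seq (scRNAseq) tables of fetal liver-derived macrophages (FLMs). Of 67 such symbols, 59 had at least 10 unique molecular identifiers (UMIs, the tags that count captured RNA molecules) over the kept cells of the 7 libraries, out of 14399 genes of any kind that did. By class, 5 code for H1, 15 for H2A, 15 for H2B, 12 for H3 and 12 for H4, and 47 of the 59 are in the Hist1 group, 9 in Hist2, 2 in Hist3 and 1 in Hist4. Of the 8 symbols left out, 6 had 0 UMIs in all libraries (Hist1h1t, Hist1h2aa, Hist1h2ba, Hist1h2bk, Hist1h2bq and Hist1h4m). The 2 others, Hist1h2ah with 6 UMIs and Hist2h2aa2 with 3, lie just under the limit, and Hist1h2ag with 30 and Hist1h2ao with 32 lie just above it.

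The FLMs were self-renewing macrophages from the livers of wild-type C57BL/6J mouse fetuses, kept in 30 ng/mL murine GM-CSF with 1% penicillin-streptomycin, and these held in every group. Con cells had medium with 10% fetal bovine serum (FBS) and no treatment. All other cells spent 24 h in 0.25% FBS, either with 8.3 µM bovine serum albumin (BSA) as vehicle (Veh) or with 25 µM docosahexaenoic acid (DHA), an omega-3 fatty acid, carried on 8.3 µM BSA. Veh.LPS.0 and DHA.LPS.0 were collected at that point, without lipopolysaccharide (LPS), the bacterial ligand of TLR4. For Veh.LPS.1, Veh.LPS.4, DHA.LPS.1 and DHA.LPS.4 the DHA or BSA medium was taken off and exchanged for treatment medium with 20 ng/mL LPS, and cells were collected 1 or 4 h later. LPS and the exchange of medium therefore cannot be told apart here. The FLMs are a cultured line rather than tissue macrophages. There was 1 library per condition, so no test between conditions was possible. Every ratio below compares 2 libraries, and its interval covers counting error only. The interval takes UMIs as independent and leaves out which cells were sampled, so it understates the uncertainty. A ratio past 1.5-fold in either direction (0.58 on the log2 scale) is called lower or higher by size. A gene with 0 UMIs in a library was read at 3 UMIs there, which makes its ratio a bound, and no ratio was formed where both libraries had at most 3 UMIs or where the bound told nothing of direction.

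Histones package DNA. H2A, H2B, H3 and H4 are the core histones around which DNA is wound, and H1 is the linker histone that binds where DNA enters and leaves the nucleosome. Cells need new histones when they copy their DNA. The transcripts of most of these genes are made mainly in S phase and are removed quickly when DNA synthesis stops. Most of them end in a stem-loop, bound by the stem-loop binding protein Slbp, in place of a poly(A) tail, while a few genes also give polyadenylated transcripts in cells that do not divide. The kit used here captures polyadenylated RNA, so most histone transcripts are read in part and levels cannot be compared between genes. The part that is read was not measured. A difference in it between libraries cannot be told apart from a difference in level. The genes also have near-identical copies and reads that fit several copies are not counted, so values of single copies are uncertain and class totals are given beside them.

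The kept cells (more than 20000 UMIs, at least 2000 genes and under 20% mitochondrial UMIs) numbered 2908 in Con, 993 to 3073 in the 3 Veh libraries and 692 to 795 in the 3 DHA libraries, with 22045775 to 125716982 UMIs per library. In Con and the Veh libraries 40.6 to 62.5% of barcodes were kept, against 12.1 to 18.5% in the DHA libraries. Between 0 and 10 kept barcodes of a library also occurred in another. All 9 macrophage markers were detected, and their summed level was between 5817 and 7089 CPM (UMIs of a gene or group per 1000000 UMIs of all genes over the kept cells of a library). The 4 lymphoid markers were at 0 in every library. Of 5 hepatocyte markers Alb, Ttr and Serpina1a were at 0, Afp was at 5.45 to 7.54 CPM and Apoa2 had 16 UMIs in all. Of 5 neutrophil markers S100a9 and Ly6g were at 0, and the summed level, nearly all from S100a8, was 0.0571 CPM in DHA.LPS.0 to 6.99 CPM in DHA.LPS.4, with 2.27 CPM of S100a8 in Veh.LPS.4. No cell type that should lack histone RNA was present, so the part of the histone UMIs that comes from free RNA was not measured.

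Together the 59 genes had 2023 CPM in Con, 1907 in Veh.LPS.0, 807 in Veh.LPS.1, 500.3 in Veh.LPS.4, 1174 in DHA.LPS.0, 512 in DHA.LPS.1 and 605 in DHA.LPS.4. The order from high to low was Con, Veh.LPS.0, DHA.LPS.0, Veh.LPS.1, DHA.LPS.4, DHA.LPS.1 and Veh.LPS.4, so that every library with LPS was below every library without it. With 1 library each, no neighbours in that order can be tested. DHA.LPS.1 and Veh.LPS.4, at the low end, had exact Poisson 95% intervals of 504 to 519.8 CPM and 495 to 506 CPM, which overlap. Without the filter on cells DHA.LPS.4 lay below Veh.LPS.4 (log2 ratio -0.23), so the order at the low end depends on the processing.

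The linker histone class H1 had 1242 CPM in Con, 961 in Veh.LPS.0, 399 in Veh.LPS.1, 266 in Veh.LPS.4, 680.3 in DHA.LPS.0, 251 in DHA.LPS.1 and 379 in DHA.LPS.4. Its highest values were in Con and the lowest in DHA.LPS.1 and Veh.LPS.4. Most H1 UMIs came from Hist1h1b (RefSeq symbol H1f5), at chromosome 13, 21779832 to 21780625 of the mm10 build, and Hist1h1e (H1f4), at chromosome 13, 23621777 to 23622558. Hist1h1b had 753 CPM in Con, 491 in Veh.LPS.0, 206 in Veh.LPS.1, 108 in Veh.LPS.4, 296 in DHA.LPS.0, 122 in DHA.LPS.1 and 156 in DHA.LPS.4. Hist1h1e had 304 CPM in Con, 279 in Veh.LPS.0, 122 in Veh.LPS.1, 111 in Veh.LPS.4, 236 in DHA.LPS.0, 77.9 in DHA.LPS.1 and 159.8 in DHA.LPS.4. Hist1h1b dropped at each step from Con to Veh.LPS.0 to Veh.LPS.1 to Veh.LPS.4, while Hist1h1e was near the same level in Con and Veh.LPS.0. Without these 2 genes the other 57 had 966 CPM in Con, 1137 in Veh.LPS.0, 479 in Veh.LPS.1, 281 in Veh.LPS.4, 643 in DHA.LPS.0, 312 in DHA.LPS.1 and 289 in DHA.LPS.4. Here Veh.LPS.0, not Con, was the highest library.

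The H2A class, whose proteins pair with H2B, had 539.8 CPM in Con, 619.9 in Veh.LPS.0, 246 in Veh.LPS.1, 126 in Veh.LPS.4, 301 in DHA.LPS.0, 158 in DHA.LPS.1 and 129 in DHA.LPS.4. Its leading genes were Hist1h2ae, Hist1h2ap and Hist2h2ac. The H2B class had 67.2 CPM in Con, 101 in Veh.LPS.0, 56.4 in Veh.LPS.1, 40.0 in Veh.LPS.4, 65.6 in DHA.LPS.0, 39.8 in DHA.LPS.1 and 36.4 in DHA.LPS.4. In both classes Veh.LPS.0 was highest. The H3 class, whose proteins pair with H4, had 97.5 CPM in Con, 134 in Veh.LPS.0, 48.8 in Veh.LPS.1, 30.4 in Veh.LPS.4, 70.2 in DHA.LPS.0, 28.1 in DHA.LPS.1 and 28.3 in DHA.LPS.4, most of it from Hist1h3c. The H4 class had 76.4 CPM in Con, 92.3 in Veh.LPS.0, 56.5 in Veh.LPS.1, 38.5 in Veh.LPS.4, 57.3 in DHA.LPS.0, 34.6 in DHA.LPS.1 and 33.1 in DHA.LPS.4, most of it from Hist1h4d. All 4 core classes thus peaked in Veh.LPS.0, whereas H1 peaked in Con. As a share of all histone UMIs, H1 made up 61.4% (95% exact binomial interval 61.2 to 61.6%) in Con and 50.4% (50.1 to 50.6%) in Veh.LPS.0. With LPS it was 49.4% in Veh.LPS.1 and 53.1% in Veh.LPS.4. In the DHA libraries it was 57.9% without LPS, 49.0% at 1 h and 62.6% at 4 h.

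**Figure D1:**
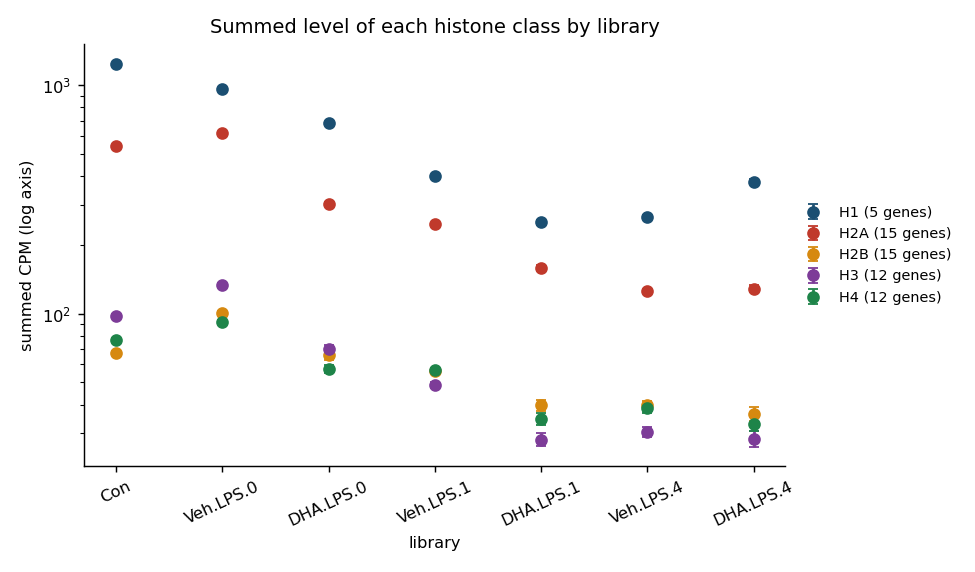
Summed CPM (log axis) of the 5 histone classes in the 7 libraries, with exact Poisson 95% intervals that are mostly smaller than the points. H1 is highest in Con at 1242 CPM and all core classes are highest in Veh.LPS.0. By point value the 4 libraries with LPS lie below the 3 without it in every class, by the least for H4. There Veh.LPS.1 has 56.5 CPM (95% interval 55.0 to 58.1) and DHA.LPS.0 57.3 CPM (95% interval 54.8 to 59.8). These intervals overlap, so for H4 the order of Veh.LPS.1 and DHA.LPS.0 lies within counting error.

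Serum reduction was examined by setting Veh.LPS.0 against Con. The 2 differ in serum, BSA and a further day of culture, which cannot be told apart. Over all kept cells, linker histones were lower and core histones higher. H1 had a log2 ratio of -0.37 (95% interval -0.38 to -0.36) and the core histones together one of 0.28 (95% interval 0.26 to 0.29), and the total hardly moved, at -0.08 (95% interval -0.09 to -0.08). With cells matched on cell cycle genes (described below, an alternative chosen after seeing the data), H1 turned to 0.23 and the core histones were at 0.78, so that both were higher. Of the 59 genes, 1 was lower and 18 were higher past 1.5-fold. Over all 13854 genes with a ratio, 9.76% were lower and 20.9% were higher. The median log2 ratio of the 59 was 0.37, against 0.03 for all genes. The G1/S list had a median of -0.54, with 8 of 20 genes lower past 1.5-fold. The G2/M list had a median of -0.45, with 2 of 16 lower. In both lists 0 genes were higher by size (no test was run). Since the matching lists were themselves lower in Veh.LPS.0, matched cells may differ in cell cycle state, which was not tested.

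Of the 5 H1 genes, the lowest ratio was that of Hist1h1b, at -0.62 (95% interval -0.63 to -0.60), the 1 member that passed 1.5-fold downward. Hist1h1a, a further linker histone, had -0.49 (95% interval -0.55 to -0.43). Hist1h1d and Hist1h1e were within 0.13 of 0 on the log2 scale. Hist1h1c, the H1 gene known for polyadenylated transcripts, was the 1 H1 gene above 0, at 0.50 (95% interval 0.45 to 0.54). Of the core genes, 8 of 15 H2B genes, 6 of 12 H3 genes, 3 of 12 H4 genes and 1 of 15 H2A genes were higher past 1.5-fold, and none was lower. The highest ratios were those of 2 H3 genes of the Hist2 group, Hist2h3c2 with 2.46 (95% interval 1.86 to 3.11), from 28 UMIs in Con and 121 in Veh.LPS.0, and Hist2h3c1 with 1.36 (95% interval 1.02 to 1.71). H3 genes of this group code for the same protein, and how reads were split between them is uncertain. Among genes with higher counts, Hist1h2ae had 0.48 (95% interval 0.45 to 0.50), Hist1h3c 0.48 (95% interval 0.43 to 0.53), Hist1h3e 0.73 (95% interval 0.64 to 0.82) and Hist1h2bm 0.54 (95% interval 0.43 to 0.65). Hist1h2ap, at -0.02 (95% interval -0.05 to 0.01), and Hist2h2ac, at 0.01 (95% interval -0.02 to 0.05), had intervals that include 0.

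LPS at 1 h was examined in vehicle cells by setting Veh.LPS.1 against Veh.LPS.0. Histone genes were lower nearly throughout. The total was 807 CPM against 1907 CPM, a log2 ratio of -1.24 (95% interval -1.25 to -1.23), and the H1 and core sums were alike at -1.27 and -1.21. Of the 59 genes, 50 were lower past 1.5-fold and 0 were higher by size (no test was run). Of all 14007 genes, 13.8% were lower and 10.9% higher. The median of the 59 was -1.21, against -0.12 for all genes.

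All 5 H1 and all 12 H3 genes were among the lower ones, with 13 of 15 H2B, 11 of 15 H2A and 9 of 12 H4 genes. The lowest was Hist1h1d (RefSeq symbol H1f3), a linker histone at chromosome 13, 23555032 to 23555807. It had 76.9 CPM in Con, 71.4 in Veh.LPS.0, 12.2 in Veh.LPS.1, 8.64 in Veh.LPS.4, 51.9 in DHA.LPS.0, 6.98 in DHA.LPS.1 and 14.7 in DHA.LPS.4. The 3 libraries without LPS lay between 51.9 and 76.9 CPM and the 4 with LPS between 6.98 and 14.7 CPM, with no overlap. For this gene and those below, the share of all genes that separate so was not computed. The log2 ratio of Hist1h1d at 1 h was -2.56 (95% interval -2.65 to -2.47), below those of Hist1h1b at -1.26 (95% interval -1.28 to -1.23) and Hist1h1e at -1.20 (95% interval -1.23 to -1.16). The next lowest among genes with at least 100 UMIs in the 2 libraries together, the limit used below for naming the lowest and highest genes, was Hist2h4, an H4 gene, at -2.24 (95% interval -2.60 to -1.89). The leading core genes were lower too. Hist1h2ae had -1.57 (95% interval -1.61 to -1.53), Hist1h2ap -1.49 (95% interval -1.54 to -1.45), Hist2h2ac -1.27 (95% interval -1.32 to -1.23) and Hist1h3c -1.42 (95% interval -1.48 to -1.35). Hist1h4d, the H4 gene with the most UMIs, was just inside 1.5-fold at -0.58 (95% interval -0.64 to -0.52), and Hist1h2an was at -0.28 (95% interval -0.37 to -0.19).

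In the same pair of libraries, the lists of cell cycle genes had medians near 0. Of 20 genes of the G1/S and replication list (Mcm genes, cyclin E, Pcna, Rrm1 and Rrm2 and others), 0 passed 1.5-fold by size in either direction (no test was run), with a median log2 ratio of 0.04. Rrm2, a ribonucleotide reductase subunit, had 104 CPM in Veh.LPS.0 and 103 in Veh.LPS.1, and Pcna, the sliding clamp, 109 and 125. Of 16 genes of the G2/M list, 0 passed 1.5-fold, with a median of -0.09, and Top2a had 444 and 450.4 CPM. Slbp, whose protein binds the histone stem-loop, went the other way, from 58.3 to 96.2 CPM (log2 ratio 0.72 (95% interval 0.68 to 0.77)).

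**Figure D2:**
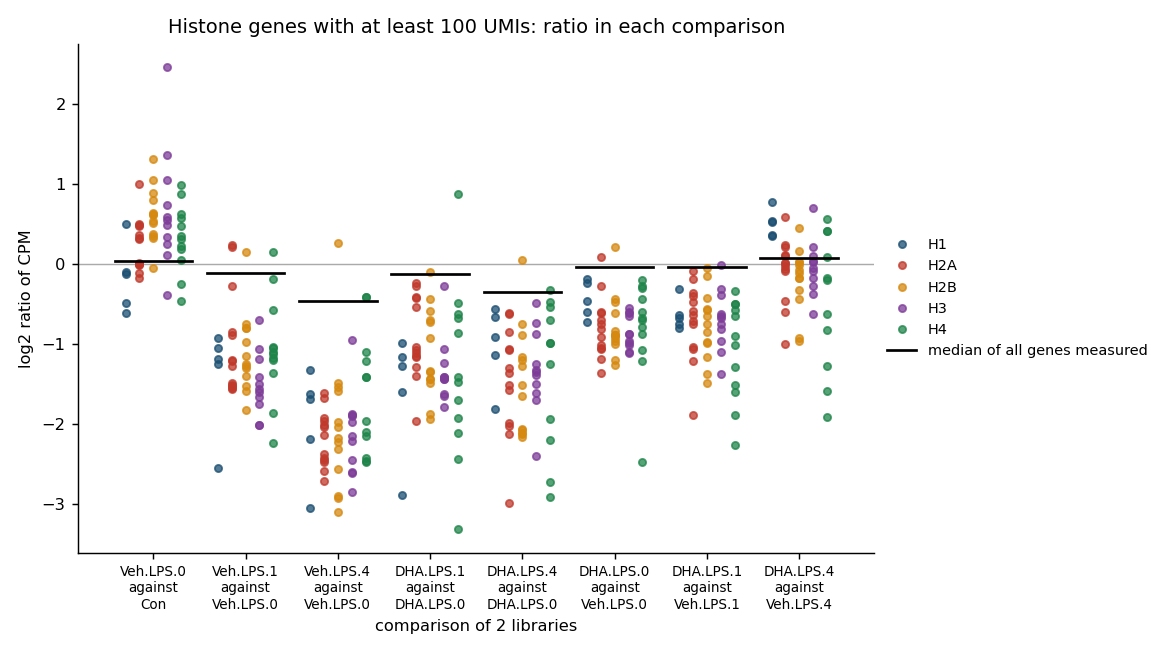
Log2 ratio of CPM for the histone genes with at least 100 UMIs over the 7 libraries (1 point per gene, coloured by class) in the 8 comparisons of 2 libraries, with the median of all genes measured as a black line. In Veh.LPS.1 against Veh.LPS.0 most points lie near -1.21 while the line is at -0.12, and in DHA.LPS.4 against Veh.LPS.4 the 5 H1 genes lie above 0 and the other classes on both sides of it.

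A few genes were not lower at 1 h, and 3 of the 4 with a ratio above 0 belong to the list of histone genes known to give polyadenylated transcripts (Hist1h1c, Hist1h2ac, Hist1h2bc, Hist2h2be and Hist3h2a). Hist1h2ac had 0.23 (95% interval -0.06 to 0.52), Hist3h2a 0.21 (95% interval 0.04 to 0.38) and Hist1h2bc 0.15 (95% interval 0.05 to 0.25). The fourth, Hist1h4c, had 0.15 (95% interval -0.14 to 0.43), and like Hist1h2ac its interval includes 0. The other 2 genes of the list were lower, Hist1h1c at -1.05 (95% interval -1.10 to -0.99) and Hist2h2be at -0.97 (95% interval -1.21 to -0.74). Because the list was drawn up with earlier results of these data known, its overlap with the genes above 0 is a description only.

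Across all libraries the 5 genes of this list shared some directions but not a whole pattern. In Veh.LPS.0 against Con they lay from 0.36 to 1.05, with 3 higher past 1.5-fold (20.9% of all genes were). At 4 h of LPS 4 of 5 were lower in vehicle cells (44.4% of all genes) and 4 of 5 in DHA cells (39.3% of all genes). Hist1h2bc, an H2B gene at chromosome 13, 23684199 to 23692480, had 7.49 CPM in Con, 15.5 in Veh.LPS.0, 17.2 in Veh.LPS.1, 18.5 in Veh.LPS.4, 17.8 in DHA.LPS.0, 16.6 in DHA.LPS.1 and 18.4 in DHA.LPS.4. On this scale it was lowest in Con and lay between 15.5 and 18.5 CPM in the 6 other libraries, with or without LPS. Its ratios at 4 h of LPS were higher under another scaling, given below. Its ratio of Veh.LPS.0 against Con was 1.05 (95% interval 0.93 to 1.16). Hist3h2a, an H2A gene at chromosome 11, 58954685 to 58955192, had 2.70 CPM in Con, 5.40 in Veh.LPS.0, 6.25 in Veh.LPS.1, 1.23 in Veh.LPS.4, 5.74 in DHA.LPS.0, 4.87 in DHA.LPS.1 and 1.32 in DHA.LPS.4. It stayed up at 1 h and was low at 4 h, in both the Veh and the DHA libraries. Hist2h2be, an H2B gene on chromosome 3, had 2.60 CPM in Con, 4.82 in Veh.LPS.0, 2.45 in Veh.LPS.1, 0.563 in Veh.LPS.4, 3.45 in DHA.LPS.0, 1.82 in DHA.LPS.1 and 0.771 in DHA.LPS.4, with both 4 h libraries lowest. Hist1h1c, a linker histone with far more UMIs, had 60.0 CPM in Con, 84.8 in Veh.LPS.0, 41.1 in Veh.LPS.1, 26.4 in Veh.LPS.4, 74.1 in DHA.LPS.0, 33.2 in DHA.LPS.1 and 33.5 in DHA.LPS.4, and all 4 libraries with LPS lay below the 3 without it. Hist1h2ac had 1.47 CPM in Con, 1.88 in Veh.LPS.0, 2.21 in Veh.LPS.1, 0.495 in Veh.LPS.4, 1.23 in DHA.LPS.0, 0.597 in DHA.LPS.1 and 0.499 in DHA.LPS.4.

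**Figure D3:**
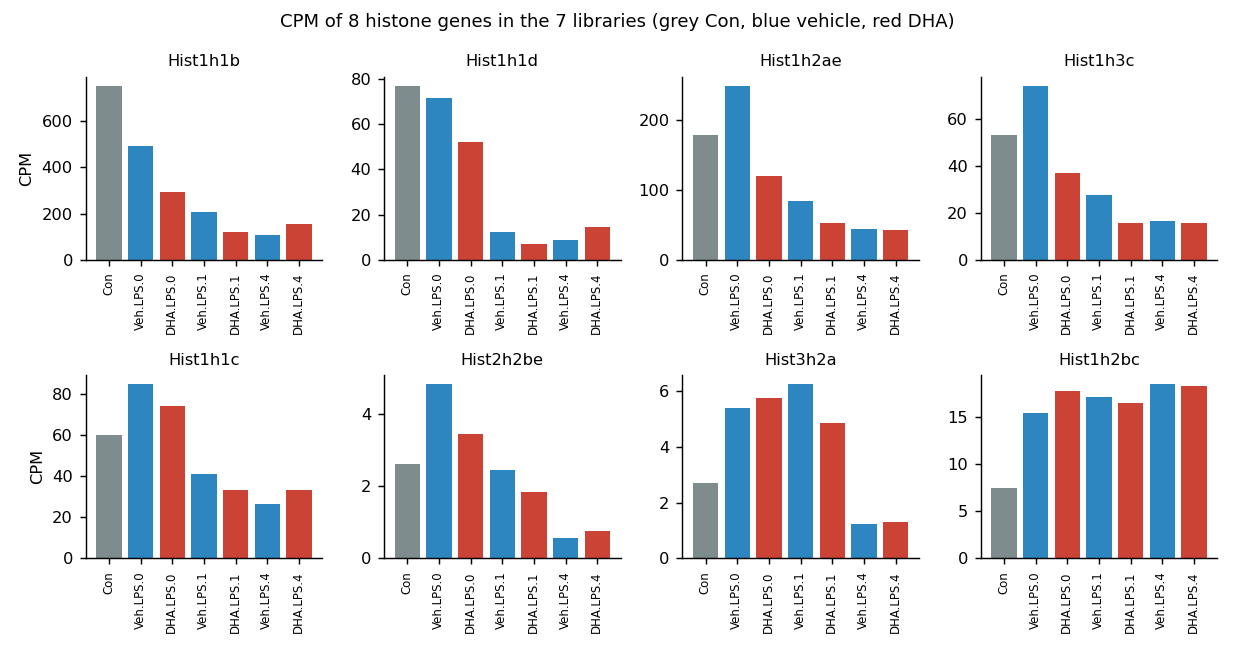
CPM (linear axes from 0, one scale per gene) of 8 histone genes in the 7 libraries, the upper 4 from the leading linker and core genes and the lower 4 from the list with polyadenylated transcripts. Hist1h1b and Hist1h1d are low in all 4 libraries with LPS, Hist3h2a is low only at 4 h among the LPS libraries, and Hist1h2bc is lowest in Con at 7.49 CPM and 15.5 to 18.5 CPM elsewhere.

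LPS at 4 h was examined by setting Veh.LPS.4 against Veh.LPS.0, which shares its control library with the 1 h comparison. The total was 500.3 CPM, a log2 ratio of -1.93 (95% interval -1.95 to -1.91). Of the 59 genes 55 were lower past 1.5-fold and 0 higher by size (no test was run), and of all 13725 genes 44.4% were lower and 13% higher. The median of the 59 was -2.05, against -0.47 for all genes. Scaling by trimmed mean of M-values (TMM) raised all ratios of this comparison by 0.43 on the log2 scale, and the total was then -1.50. The same scaling raised the 4 h and 1 h ratios of the DHA cells by 0.30 and 0.11, lowered those of DHA.LPS.4 against Veh.LPS.4 by 0.12, and moved the others by less than 0.1.

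By class the log2 ratios at 4 h were -1.85 for H1, -2.30 for H2A, -1.34 for H2B, -2.14 for H3 and -1.26 for H4. The lowest genes with at least 100 UMIs were Hist2h2be at -3.10 (95% interval -3.65 to -2.59) and Hist1h1d at -3.05 (95% interval -3.18 to -2.92). Hist1h2ae was at -2.47, Hist1h2ap at -2.45, Hist1h3c at -2.15, Hist1h2bm at -2.90 and Hist1h1b at -2.18. Hist1h1e, at -1.32, and Hist1h4d, at -1.10, were less low than these. Hist1h2bc alone was above 0, at 0.26 (95% interval 0.15 to 0.38), and TMM scaling put it at 0.69, past 1.5-fold. Hist1h4c, at -0.41 (95% interval -0.79 to -0.05), and Hist1h4a, at -0.42 (95% interval -0.79 to -0.06), were within 1.5-fold, and TMM scaling put both at 0.02 and 0.01, above 0. Hist1h2ao and Hist1h2ag had 0 UMIs in Veh.LPS.4, and their log2 ratios to Veh.LPS.0 were at most -1.36 and -0.83. Unlike at 1 h, cell cycle genes were low as well. Of the G2/M list 16 of 16 were lower past 1.5-fold, with a median of -2.06, and of the G1/S list 18 of 20, with a median of -1.37.

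Against vehicle cells, the LPS comparisons in DHA-treated cells gave a like picture at 1 h and a smaller difference at 4 h. Over all barcodes, with no filter on cells, the totals at 1 and 4 h were -1.18 and -1.24 in DHA cells. In vehicle cells they were -1.30 and -1.98. DHA.LPS.4 kept 12.1% of its barcodes and DHA.LPS.0 18.5%, and the part of this was not tested. Veh and DHA arms share no library here, but whether their ratios differ was not tested. For DHA.LPS.1 against DHA.LPS.0 the total had a log2 ratio of -1.20 (95% interval -1.22 to -1.17), and 46 of the 57 genes with a ratio were lower past 1.5-fold and 2 were higher. Over all 12971 genes, 13.5% were lower and 9.99% higher. The 2 higher ones, Hist1h3h with 4 and 2 UMIs and Hist1h4k with 5 and 3 UMIs, were picked out after their values were seen. Their ratios, not on the log2 scale, were 2.20 (95% interval 0.316 to 24.3) and 1.83 (0.357 to 11.8). Both rest on so few UMIs that the intervals include 1. Hist1h1d was again the lowest of the genes with at least 100 UMIs, at -2.90 (95% interval -3.10 to -2.69), followed by Hist1h2ab at -1.97 (95% interval -2.26 to -1.69). Hist1h2bc, at -0.11 (95% interval -0.28 to 0.06), and Hist3h2a, at -0.24 (95% interval -0.55 to 0.07), were the highest of such genes, both with intervals that include 0, and with TMM Hist1h2bc was at 0.00. Hist1h2ap had -0.54 here against -1.49 in vehicle cells. The G1/S and G2/M lists had 0 of 20 and 0 of 16 genes past 1.5-fold by size (no test was run), with medians of -0.13 and -0.17.

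For DHA.LPS.4 against DHA.LPS.0 the total had a log2 ratio of -0.96 (95% interval -0.99 to -0.93), and 48 of 56 genes were lower and 1 higher. Of all 12655 genes, 39.3% were lower and 12.1% higher. The 1 higher was again Hist1h3h, with 4 and 2 UMIs. Its ratio, not on the log2 scale, was 3.18, with a 95% interval (0.455 to 35.1) that includes 1. H1 had -0.85 and the core sum -1.13. Of the genes with at least 100 UMIs, Hist2h2be, at -2.16 (95% interval -2.99 to -1.42), and Hist3h2a, at -2.13 (95% interval -2.74 to -1.56), were lowest, while Hist1h2bc, at 0.04 (95% interval -0.14 to 0.22), and Hist1h1e, at -0.56 (95% interval -0.62 to -0.50), were highest. With TMM Hist1h2bc was at 0.34. Cell cycle genes were low as well. Of the G2/M list 15 of 16 were lower past 1.5-fold, with a median of -1.04, and of the G1/S list 11 of 20, with a median of -0.68.

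DHA was set against vehicle at each time. Without LPS, histone genes were lower in DHA cells, core genes more than H1. Against a total of 1907 CPM with vehicle there were 1174 CPM with DHA, which is -0.70 (95% interval -0.72 to -0.68) on the log2 scale. The core sum had -0.94 (95% interval -0.96 to -0.91) and H1 -0.50 (95% interval -0.52 to -0.48), and whether they differ was not tested. Of the 59 genes 44 were lower past 1.5-fold and 1 higher, with a median of -0.79. Of all 13366 genes, 6.5% were lower and 5.99% higher, with a median of -0.04. The 1 higher gene, Hist1h2bj, had 6 and 11 UMIs and an interval that includes 0, and was picked out after its value was seen. The share of barcodes kept, 18.5% in DHA.LPS.0 and 55.6% in Veh.LPS.0, moved with this difference, and its part in the result was not tested. Over all barcodes of the 2 libraries, with no filter on cells, the total had a ratio of -0.96. With cells matched on cell cycle genes it was -0.28.

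The lower genes were 11 of 12 H3, 12 of 15 H2A, 11 of 15 H2B, 8 of 12 H4 and 2 of 5 H1 genes. The lowest with at least 100 UMIs were Hist1h2ap at -1.36 (95% interval -1.42 to -1.30) and Hist1h2bh at -1.26 (95% interval -1.68 to -0.86). Hist1h2ae had -1.05, Hist1h3c -0.99 (95% interval -1.08 to -0.91) and Hist2h2ac -0.92 (95% interval -0.98 to -0.85). The H1 genes spread from Hist1h1b at -0.73 (95% interval -0.76 to -0.70) to Hist1h1c at -0.20 (95% interval -0.26 to -0.13), with Hist1h1e at -0.24 (95% interval -0.28 to -0.21). Hist1h2bc, at 0.21 (95% interval 0.07 to 0.34), and Hist3h2a, at 0.09 (95% interval -0.15 to 0.33), were the highest with at least 100 UMIs. Cell cycle genes were below 0 too but by less, with medians of -0.32 for the G1/S list (2 of 20 lower past 1.5-fold) and -0.44 for the G2/M list (1 of 16).

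At 1 h of LPS vehicle cells had a total of 807 CPM and DHA cells 512 CPM, or -0.66 (95% interval -0.68 to -0.63) on the log2 scale. With cells matched on cell cycle genes the ratio was -0.081. DHA.LPS.1 kept 18.1% of its barcodes and Veh.LPS.1 53.9%, and the part of this in the result was not tested. Of 57 genes with a ratio 38 were lower past 1.5-fold and 1 higher, and of all 13493 genes 7.49% were lower and 6.81% higher. The 1 higher was Hist1h3h, with 4 and 3 UMIs. Its ratio, not on the log2 scale, was 3.96, with a 95% interval (0.670 to 27.05) that includes 1. H1 and the core sum were close, at -0.67 and -0.65. Hist1h4c, from 214 UMIs in Veh.LPS.1 and 15 in DHA.LPS.1, was lowest at -2.26 (95% interval -3.13 to -1.51), and Hist1h2ac followed at -1.89 (95% interval -2.65 to -1.21). These 2 are among the genes that had not been lower at 1 h in vehicle cells. Both comparisons use Veh.LPS.1, so a high count there moves the 2 ratios in opposite directions. Hist1h2bc had -0.05 (95% interval -0.20 to 0.09) and Hist1h2ai -0.09 (95% interval -0.78 to 0.57), the highest 2 with at least 100 UMIs. The G1/S and G2/M lists had medians of -0.48 and -0.53, with 4 of 20 and 6 of 16 genes lower past 1.5-fold.

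At 4 h of LPS the linker histones were higher in DHA cells over all kept cells and the core histones near level. Within cells of like G1/S level, described below, H1 was near level in low and high cells and the core histones were below 0 in all 3 groups. Vehicle cells had a total of 500.3 CPM and DHA cells 605 CPM, or 0.27 (95% interval 0.24 to 0.30) on the log2 scale. Over all barcodes the total turned round to -0.23. H1 had 0.51 (95% interval 0.47 to 0.55) and the core sum -0.05 (95% interval -0.10 to -0.01), while H2A was at 0.03 and, with TMM, at -0.09. All 5 H1 genes were above 0, from Hist1h1c at 0.34 (95% interval 0.21 to 0.47) to Hist1h1d at 0.77 (95% interval 0.56 to 0.97), with Hist1h1b at 0.53 (95% interval 0.47 to 0.59) and Hist1h1e at 0.52 (95% interval 0.46 to 0.58). Of 54 genes with a ratio, 10 were lower past 1.5-fold and 3 higher, and of all 12593 genes 8.74% were lower and 8.47% higher. The 3 higher ones were Hist1h1d and, from under 25 UMIs a library and with intervals that include 0, Hist2h3c1 and Hist1h3h. The lowest with at least 100 UMIs were Hist1h4a, at -1.27 (95% interval -2.20 to -0.45), and Hist1h2bl, at -0.93 (95% interval -1.70 to -0.22). In this pair 13 of 16 G2/M genes were higher past 1.5-fold, with a median of 0.66, and 0 of 20 G1/S genes passed it by size (no test was run), with a median of 0.30. DHA.LPS.4 kept 12.1% of its barcodes and Veh.LPS.4 40.6%, and the part of this in the result was not tested.

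Within each library histone UMIs were very uneven between cells. With every kept cell thinned to 20000 UMIs, the median cell had 7 histone UMIs in Con and 8 in Veh.LPS.0, while the cell at the 75th percentile had 77 and 70 and that at the 90th had 106 and 108. The 10% of cells with the most histone UMIs held 32.2% of all histone UMIs in Con and 38.2% in Veh.LPS.0. With LPS the upper end came down. The 90th percentile was 44 UMIs in Veh.LPS.1 and 30.8 in Veh.LPS.4, and the median 4 and 2. With DHA and no LPS, the 75th percentile was 17.75 UMIs against 70 in Veh.LPS.0, whereas the 90th was 75 against 108. DHA.LPS.1 had a 90th percentile of 33 UMIs and DHA.LPS.4 one of 37, and the top 10% of cells held 50.1% and 49.8% of histone UMIs there.

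**Figure D4:**
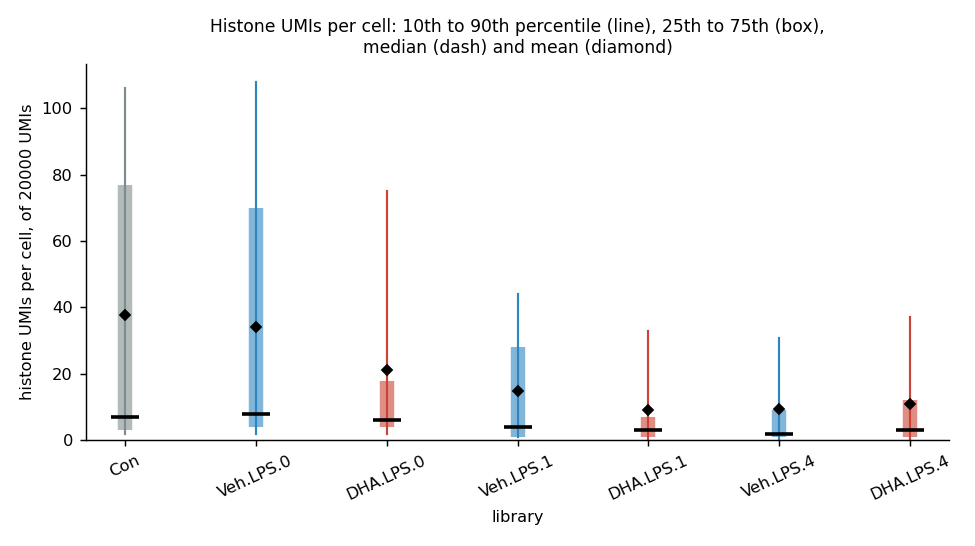
Histone UMIs per cell after thinning every kept cell to 20000 UMIs, by library, with the 10th to 90th percentile as a line, the 25th to 75th as a box, the median as a dash and the mean as a diamond. Medians lie at 8 UMIs or fewer in every library while the 90th percentile reaches 106 in Con, 108 in Veh.LPS.0 and 30.8 in Veh.LPS.4.

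The classes varied together from cell to cell. Over the cells of a library, the Pearson correlation of the log UMIs of H1 and of the core histones was 0.77 in DHA.LPS.4 (692 cells) to 0.89 in Con (2908 cells), as a description of cells that share a library and a depth. In Veh.LPS.0 (2481 cells) the correlation of a gene with the sum of the other members was 0.87 for Hist1h2ap and Hist1h2ae, 0.86 for Hist1h1b, 0.81 for Hist1h1e and for Hist1h3c, and 0.74 for Hist1h4d. Hist1h2be and Hist1h2bc are H2B genes with similar levels there (14.1 and 15.5 CPM), and their correlations were 0.46 and 0.13.

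By the same measure over Veh.LPS.0 cells, the 10 genes outside the histone set most like the histone total, of 7132 candidates, were Top2a (0.70), Esco2 (0.65), Kif11 (0.65), Fbxo5, Prc1, Mki67, Pbk, Smc4, Aurkb and H2afx (0.57). Top2a, also on the G2/M list, codes for a DNA topoisomerase, Esco2 for an acetyltransferase of sister chromatid cohesion, Kif11 for a spindle kinesin and Fbxo5 for an inhibitor of the anaphase-promoting complex. Top2a was at 0.63 to 0.75 in all 7 libraries. The sum of the G1/S list correlated less with the core histones in Veh.LPS.0 (0.46) than the sum of the G2/M list did (0.61). In Veh.LPS.4 alone the order was the other way, at 0.57 and 0.56. The G1/S sum also had fewer UMIs per cell in Veh.LPS.0 (mean 22.2 against 51.6), and the part of this was not tested.

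To set histone UMIs beside cell cycle state, kept cells were called low, middle or high by their UMIs for the G1/S list (at most 13, up to 26, and above, limits that cut the cells of Veh.LPS.0 into 3 groups of like size) and likewise for the G2/M list (limits 15 and 68). The same UMI limits were used in every library. Where the list genes differ between libraries, cells at the same level need not share a cell cycle state. In the G1/S-high cells the mean was 61.9 histone UMIs per cell in Veh.LPS.0 (824 cells) and 23.1 in Veh.LPS.1 (1108 cells), a log2 ratio of -1.42. In G1/S-low cells it was 9.27 and 4.10, a log2 ratio of -1.18. Cells high in both lists had 96.9 UMIs in Veh.LPS.0 and 36.5 in Veh.LPS.1, and cells low in both had 5.78 and 2.33. All 9 combinations of G1/S and G2/M level were lower in Veh.LPS.1, from -0.86 to -1.58. The shares of G1/S-high cells were 33.2% and 36.1%. With the 9 combinations weighted as in Veh.LPS.0, an alternative chosen after seeing the data, the ratio of Veh.LPS.1 to Veh.LPS.0 was -1.27, and it was -1.22 with each library's own mix. Among cells matched on these lists the difference at 1 h was of a similar size, and its cause was not tested.

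At 4 h the mix of cells differed. G1/S-high cells numbered 79 in Veh.LPS.4, which is 7.96% of its cells, and 85 in DHA.LPS.4, which is 12.3%. They had 42.3 and 40.1 histone UMIs, between the 23.1 of Veh.LPS.1 and the 61.9 of Veh.LPS.0. G1/S-low cells made up 77.7% and 71.5%, with 4.04 and 3.55 histone UMIs. The list genes were themselves lower at 4 h. The G1/S list had a mean of 22.2 UMIs per cell in Veh.LPS.0 and 9.78 in Veh.LPS.4, and the G2/M list 51.6 and 11.9. Cells at the same level may therefore differ in cell cycle state between these libraries, which was not tested. The combinations of G1/S and G2/M level with at least 20 cells did not all go one way. For Veh.LPS.4 against Veh.LPS.0 the log2 ratio was -0.72 in cells low in both lists and -0.32 in G1/S-high, G2/M-middle cells, but 0.14 in G1/S-low, G2/M-middle cells, 1.26 in G1/S-middle, G2/M-low cells (62 cells in Veh.LPS.4) and 1.46 in cells middle in both (76 cells). For DHA.LPS.4 against DHA.LPS.0 the same 5 combinations had -1.11, -0.29, 0.44, 0.84 and 0.69. Between DHA.LPS.4 and Veh.LPS.4, H1 had log2 ratios of -0.04 in G1/S-low, 0.35 in G1/S-middle and 0.09 in G1/S-high cells, and the core histones -0.33, -0.31 and -0.36. The other combinations held under 20 cells in Veh.LPS.4 and in DHA.LPS.4, so no weighted value was computed for these libraries.

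DHA and vehicle cells also differed in their mix. G1/S-low cells made up 52.4% of DHA.LPS.0 and 34.8% of Veh.LPS.0, and cells low in both lists 39.7% and 19.7%. Within the G1/S-high cells the mean was 51.2 histone UMIs in DHA.LPS.0 (157 cells), against the 61.9 given above for vehicle, and the log2 ratio was -0.27, with -0.09 for H1 and -0.51 for the core histones. Weighted to the same mix, the total was 28.2 and 34.2 UMIs per cell, a log2 ratio of -0.28 in place of -0.69, with -0.10 for H1 and -0.49 for the core histones. The single combinations did not all go one way. They ran from -0.45 in cells high in both lists to 0.54 in cells middle in both (33 cells in DHA.LPS.0). The smallest held 23 DHA.LPS.0 cells. At 1 h the weighted total was 13.4 in DHA.LPS.1 and 14.2 in Veh.LPS.1, a ratio of -0.081 in place of -0.70. There the combinations ran from -0.42 to 0.16, and the smallest held 28 DHA.LPS.1 cells. For serum reduction the weighting turned the direction. The total of Veh.LPS.0 against Con was 0.47 in place of -0.14, with 0.23 for H1 and 0.78 for the core histones, and G1/S-high cells made up 61.2% of Con.

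**Figure D5:**
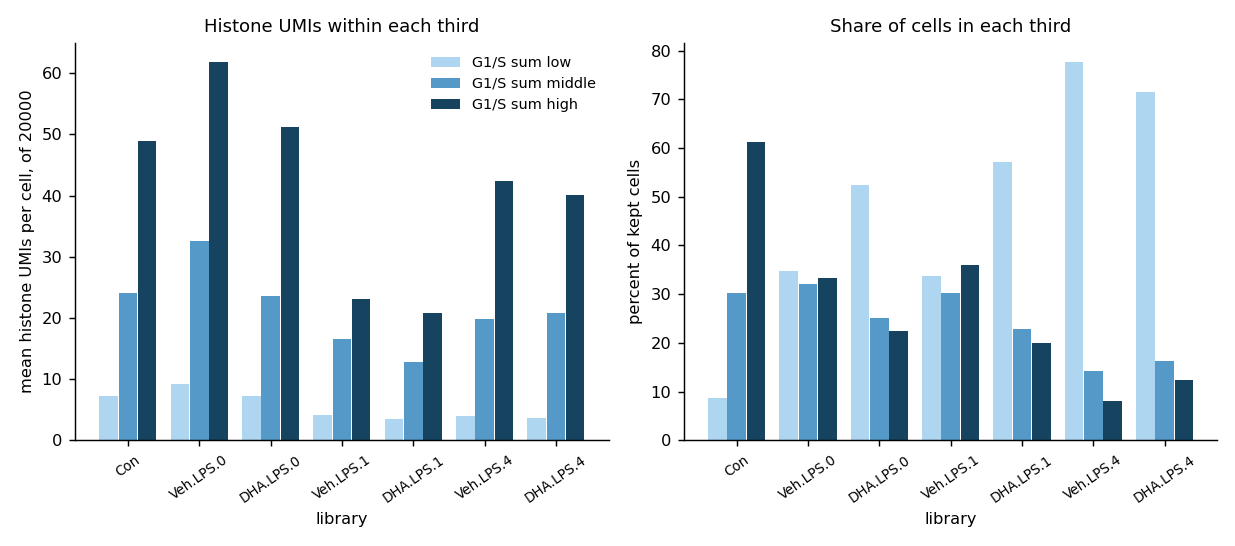
Mean histone UMIs per cell (left, of 20000 UMIs) and percent of kept cells (right) in the cells low, middle and high for the G1/S list, by library, with limits that cut Veh.LPS.0 into 3 groups of like size. From Veh.LPS.0 to Veh.LPS.1 the high cells go from 61.9 to 23.1 UMIs while their share stays near 33.2 to 36.1%, and in Veh.LPS.4 their share is 7.96% at 42.3 UMIs.

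Genes that act on histones or replace them outside S phase were taken as lists. Of 11 replacement variants, 9 had at least 10 UMIs. H3f3b, which codes for H3.3, had 1193 CPM in Con, 858 in Veh.LPS.0, 1601 in Veh.LPS.1, 1546 in Veh.LPS.4, 799.8 in DHA.LPS.0, 1339 in DHA.LPS.1 and 1336 in DHA.LPS.4, so the 4 libraries with LPS lay above the 3 without it (0.90 (95% interval 0.89 to 0.91) at 1 h in vehicle cells). H3f3a, which codes for the same protein, lay between 760.4 and 876 CPM in all libraries. H1f0, the linker variant of resting cells, had 99.6 CPM in Con and 241 in Veh.LPS.0, and vehicle cells with LPS had 211 after 1 h and 66.6 after 4 h. It was the 1 variant higher past 1.5-fold in Veh.LPS.0 than in Con (20.9% of all genes were). H2afz, the H2A.Z gene, had 1726 CPM in Con, 1285 in Veh.LPS.0 and 1184 in Veh.LPS.1. At 1 h in vehicle cells 0 of 9 variants were lower past 1.5-fold and 1 (H3f3b) was higher, against 13.8% and 10.9% of all genes. At 4 h 6 were lower (44.4% of all genes were), the lowest H2afx, whose protein marks DNA breaks, at -2.17 (95% interval -2.23 to -2.11).

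Of 12 genes for the processing of histone transcript ends, Slbp was the 1 gene higher past 1.5-fold at 1 h in both arms. Among all genes 10.9% were higher and 13.8% lower in vehicle cells, and 9.99% and 13.5% in DHA cells. Slbp had 86.7 CPM in Con, 58.3 in Veh.LPS.0, 96.2 in Veh.LPS.1, 36.6 in Veh.LPS.4, 45.1 in DHA.LPS.0, 77.4 in DHA.LPS.1 and 45.5 in DHA.LPS.4. The libraries at 1 h lay above the others of their arm, and Con lay between them. Zfp473, which codes for a zinc finger protein of the U7 complex, was the 1 lower gene in vehicle cells, at -1.09 (95% interval -1.68 to -0.53) from under 1 CPM. Eri1, an exonuclease that trims the stem-loop end, had 101 CPM in Con, 82.1 in Veh.LPS.0, 80.8 in Veh.LPS.1 and 45.1 in Veh.LPS.4. At 4 h 9 of the 12 were lower in vehicle cells, where 44.4% of all genes were, and 6 of 12 in DHA cells, where 39.3% of all genes were.

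Of 13 histone chaperones, 0 passed 1.5-fold by size at 1 h of LPS in either arm (no test was run). Among all genes 13.8% were lower and 10.9% higher in vehicle cells, and 13.5% and 9.99% in DHA cells. Nasp, which binds H1 and H3 with H4, had 172 CPM in Veh.LPS.0 and 184 in Veh.LPS.1, and Ssrp1, a subunit of the FACT complex, 179 and 177. At 4 h 10 of 13 were lower in vehicle cells (44.4% of all genes) and 4 of 13 in DHA cells (39.3% of all genes), with medians of -0.70 and -0.38. In vehicle cells the lowest was Asf1b at -2.13 (95% interval -2.22 to -2.03), and Daxx, a chaperone of H3.3, was higher at 1.06 (95% interval 0.97 to 1.14). With DHA at 4 h Daxx had 21.0 CPM against 43.5 in Veh.LPS.4, a log2 ratio of -1.05 (95% interval -1.19 to -0.90).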

How the data were processed

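FLMs were profiled by 10x Genomics 3′ scRNAseq (v3), with 1 library for each of 7 conditions. The deposited matrices hold raw UMI counts per gene and barcode. Per the submitters' processing notes and the file headers, the authors made them with Cell Ranger 3.1.0 on mm10, which counts only reads that map to a single gene. Barcodes with more than 20000 UMIs, at least 2000 genes and under 20% UMIs of mt- genes were kept, as in the study's own filter. No doublet caller was run. Counts were summed per library over kept cells and divided by the library total to give CPM. Log2 ratios have exact binomial 95% intervals and CPM have exact Poisson 95% intervals, both covering counting error only and not the sampling of cells. With 1 library per condition no test was made and no p-value is given. Ratios past 1.5-fold were counted as lower or higher. The calculation was tested on simulated counts.

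The text names the 4 genes of each class with the highest mean CPM, the 2 highest and 2 lowest ratios of each comparison among genes with at least 100 UMIs in its libraries, the 5 genes with polyadenylated transcripts, and of each other list the 2 genes with the highest mean CPM and those at either end of a comparison. It also names the 10 genes whose log UMIs had the highest Pearson correlation with the histone total over Veh.LPS.0 cells, each thinned to 20000 UMIs, of those detected in 20% of cells or more. The genes, lists and this rule were chosen with earlier results of these data known. Alternatives were all barcodes, a limit of 10000 UMIs, TMM factors (edgeR 4.0.16), thinned cells, members with at least 100 UMIs, a 2-fold limit and, chosen after seeing the data, cells matched on cell cycle lists. Positions come from RefSeq on GRCm38.p6, the assembly also called mm10, where 58 of the 59 symbols matched (not Hist1h2ap). Python 3.11.15, numpy 2.4.6, scipy 1.17.1, pandas 2.3.3, matplotlib 3.10.9 and R 4.3.3 were used.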

Additional observations from a re-analysis of the deposited data

Results flagged for a closer look

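The linker histones were flagged because DHA and vehicle cells differed in opposite directions before and after 4 h of LPS. The change of sign was not particular to them. The median log2 ratio of the G1/S list was -0.32 without LPS, -0.48 at 1 h and 0.30 at 4 h. For the G2/M list the medians were -0.44, -0.53 and 0.66. For H1 the log2 ratio of DHA to vehicle was -0.50 without LPS, -0.67 at 1 h and 0.51 at 4 h, and for all 59 genes it was -0.70, -0.66 and 0.27. Hist1h1b went from -0.73 and -0.76 to 0.53, Hist1h1e from -0.24 and -0.64 to 0.52, and Hist1h1d from -0.46 and -0.80 to 0.77. Hist1h1c, the linker histone with polyadenylated transcripts, had -0.20, -0.31 and 0.34, and among the core genes Hist2h2ac had -0.92, -0.72 and 0.20. The difference between the times was not tested, since each condition had 1 library. At 4 h the G2/M list was also higher in DHA cells (median 0.66), the DHA library kept 12.1% of its barcodes and the vehicle library 40.6%, and the ratio of the total over all barcodes was -0.23. The part of these in the result was not tested. Within G1/S-low, -middle and -high cells the 4 h ratio of H1 was -0.04, 0.35 and 0.09.

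Barcodes left out by the filter on cells held histone UMIs as well. In Veh.LPS.0 they had 926 CPM (95% Poisson interval 911 to 941), above the 860 CPM of the left-out barcodes in Con (843 to 877), and in the 5 other libraries they had 246 to 605 CPM. In each library this was below the level of the kept cells.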

How the results depend on the processing

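The direction of the histone total was the same as reported under every alternative tried except 2. Over all barcodes the log2 ratio of DHA.LPS.4 to Veh.LPS.4 was -0.23 in place of 0.27, and with cells matched on the cell cycle lists, chosen after seeing the data, Veh.LPS.0 against Con was 0.47 in place of -0.08. The matched values of the other comparisons were -1.27 for Veh.LPS.1 against Veh.LPS.0, -1.07 for DHA.LPS.1 against DHA.LPS.0, -0.28 for DHA.LPS.0 against Veh.LPS.0 and -0.081 for DHA.LPS.1 against Veh.LPS.1. At 4 h some combinations held too few cells for a matched value. In the order Veh.LPS.0 against Con, Veh.LPS.1 and Veh.LPS.4 against Veh.LPS.0, DHA.LPS.1 against DHA.LPS.0, DHA.LPS.1 against Veh.LPS.1 and DHA.LPS.4 against Veh.LPS.4, thinned cells gave -0.14, -1.22, -1.87, -1.23, -0.70 and 0.21, and TMM gave -0.13, -1.15, -1.50, -1.09, -0.62 and 0.15, with -0.66 for DHA.LPS.4 against DHA.LPS.0. Over all barcodes the totals were -0.11 for Veh.LPS.0 against Con, -1.30 and -1.98 for LPS at 1 and 4 h in vehicle cells, -1.24 for DHA.LPS.4 against DHA.LPS.0, and -0.96 and -0.84 for DHA against vehicle at 0 and 1 h. With a limit of 10000 UMIs, Veh.LPS.1 against Veh.LPS.0 was -1.30, DHA.LPS.4 against DHA.LPS.0 -1.0003, DHA.LPS.1 against Veh.LPS.1 -0.61 and DHA.LPS.4 against Veh.LPS.4 0.23.

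Counts of lower genes at 2-fold were 0 for Veh.LPS.0 against Con in place of 1, 16 for DHA.LPS.0 against Veh.LPS.0 in place of 44, 17 for DHA.LPS.1 against Veh.LPS.1 in place of 38, and 4 for DHA.LPS.4 against Veh.LPS.4 in place of 10. Over all barcodes the last was 22. Higher genes at 2-fold were 5 for Veh.LPS.0 against Con in place of 18, 1 for DHA.LPS.1 against DHA.LPS.0 and 0 for DHA against vehicle at 0 and 4 h. Over all barcodes 0 genes were higher by size for DHA.LPS.1 and for DHA.LPS.4 against DHA.LPS.0 and for DHA.LPS.0 against Veh.LPS.0, and 1 for DHA.LPS.4 against Veh.LPS.4 (no test was run). Among genes with at least 100 UMIs the higher ones were 1 for DHA.LPS.1 against DHA.LPS.0 and 0 by size for DHA.LPS.4 against DHA.LPS.0 and for DHA against vehicle at 0 and 1 h. TMM gave 1 higher gene for Veh.LPS.4 against Veh.LPS.0 (Hist1h2bc) and 1 for DHA.LPS.4 against Veh.LPS.4. The cause of these shifts was not tested, apart from fewer genes passing a stricter limit. Shares over all genes were computed for the main setting only, so the counts under the alternatives cannot be set against all genes. No paired analysis was possible because each condition had 1 library, and no replicate could be left out. Promoter motifs were not run.

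Limits of the data are the single library per condition, transcripts read mostly without a poly(A) tail by a poly(A) kit, and near-identical copies that lose reads. Free RNA could not be measured, and genes with under 100 UMIs have ratios that counting error alone can move past 1.5-fold.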

Other observations

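Further genes of each class, with fewer UMIs, had the values that follow. Hist2h2bb, an H2B gene, had 16.6 CPM in Con, 20.7 in Veh.LPS.0, 11.9 in Veh.LPS.1, 7.37 in Veh.LPS.4, 10.9 in DHA.LPS.0, 8.05 in DHA.LPS.1 and 5.85 in DHA.LPS.4. Hist1h2be, also H2B, had 9.90 CPM in Con, 14.1 in Veh.LPS.0, 5.71 in Veh.LPS.1, 4.68 in Veh.LPS.4, 9.22 in DHA.LPS.0, 3.39 in DHA.LPS.1 and 4.13 in DHA.LPS.4. Both were highest in Veh.LPS.0, and the 3 libraries of the DHA arm lay below the vehicle library of the same time, Hist2h2bb by -0.93, -0.57 and -0.33 on the log2 scale.

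Of the H3 genes, Hist1h3d had 10.4 CPM in Con, 7.95 in Veh.LPS.0 and 3.94 in DHA.LPS.0, and at most 2.81 in the libraries with LPS. Hist1h3i had 4.82 CPM in Con, 7.24 in Veh.LPS.0 and 3.34 in DHA.LPS.0, and at most 3.18 with LPS. Con was the highest library for the former and Veh.LPS.0 for the latter. Of the H4 genes, Hist1h4h had 8.93 CPM in Con, 13.3 in Veh.LPS.0, 5.86 in Veh.LPS.1, 2.99 in Veh.LPS.4, 6.31 in DHA.LPS.0, 3.93 in DHA.LPS.1 and 3.18 in DHA.LPS.4. Hist4h4, alone in its group and the 1 member on chromosome 6 (136803993 to 136804431), had 2.63 CPM in Con, 2.72 in Veh.LPS.0, 1.06 in Veh.LPS.1, 0.631 in Veh.LPS.4, 1.57 in DHA.LPS.0, 0.566 in DHA.LPS.1 and 0.408 in DHA.LPS.4. In each of Hist1h3d, Hist1h3i, Hist1h4h and Hist4h4 every library with LPS lay below every library without it. The share of all genes that separate so was not computed. In vehicle cells 13.8% of all genes were lower past 1.5-fold at 1 h and 44.4% at 4 h. Between Veh.LPS.1 and DHA.LPS.0 the gap was small for Hist1h3i (3.18 and 3.34 CPM, from 301 and 117 UMIs). It was also small for Hist1h4h (5.86 and 6.31 CPM, from 554 and 221 UMIs), and neither was tested.

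Within H1 the share of UMIs from Hist1h1b was 60.6% in Con, 51.2% in Veh.LPS.0 and 43.5% in DHA.LPS.0. With LPS it was 51.6% in Veh.LPS.1 and 48.5% in DHA.LPS.1, and 40.7% and 41.3% in the 2 libraries at 4 h.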
